A study of Mus musculus with 7 samples.

Results

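The genes described here are Trp53, which encodes the mouse p53 transcription factor, and 9 genes known as its targets or regulators: Mdm2, Mdm4, Cdkn1a, Ccng1, Sesn1, Sesn2, Zmat3, Eda2r and Phlda3. They were taken by symbol, and each of the 10 symbols named 1 of the 56941 genes in the gene tables of all 4 animals. Each gene had at least 1 transcript in the tumor-like nuclei of every animal.

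The p53 protein binds a short DNA element near its target genes and raises their transcription when DNA is damaged or cells are stressed. Mdm2 marks p53 for degradation and is itself a target, so that the pair forms a feedback loop, and Mdm4 binds and restrains p53. Loss of both Trp53 and Rb1 is the usual genetic basis of small cell lung cancer, a neuroendocrine tumor, and of the mouse models made for it.

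Transcripts of single nuclei were counted in fresh-frozen endpoint lung tumors of 4 male mice. The RP mice, RP1 and RP2, carried conditional (fl/fl) alleles of Rb1 and Trp53, and the RPC mice, RPC1 and RPC2, carried the same alleles together with loss of Casp8, which the labels write as Casp8-/- and the methods of the study as a conditional allele. All 4 mice received adenovirus with Cre recombinase under the CMV promoter (Ad5-CMV-Cre) by inhalation into the trachea, and this promoter does not restrict Cre to 1 cell type. By their labels the animals thus shared the deletion of Rb1 and Trp53, and no tumor with intact Trp53 was among them. The labels give neither the ages of the animals nor the deleted part of each allele, and the normal nuclei came from the same lungs as the tumors. Nothing in the sources used here gives the litters of the animals, and each animal was 1 replicate.

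The deposited matrices held between 32299909 and 72446861 transcripts per animal in 8413 to 10865 nuclei, and both RPC animals were deeper than both RP animals. The ribosomal transcript Rn18s-rs5 took 10.002% and 8.51% of the transcripts in RP1 and RP2, against 3.13% and 5.38% in RPC1 and RPC2. No nuclear barcode was shared between animals. Clusters were named from marker genes, with Trp53, its targets and 53 further genes of the pathway kept out of the genes that defined the clusters. Tumor-like nuclei numbered 7031, 7218, 9166 and 8609 in RP1, RP2, RPC1 and RPC2, and in these each of the 13 neuroendocrine markers was detected. Normal classes were small, from 20 alveolar type 2-like nuclei in RP1 to 316 macrophage- or monocyte-like nuclei in RP2 among the 7 classes with at least 20 nuclei in every animal. Neuroendocrine marker transcripts were also found in these classes, at a median of 82.3% of the tumor-like level in B cell-like, 84.1% in T or NK cell-like, 77.7% in endothelial-like, 71.9% in Prkg1/Eln-led, 69.6% in macrophage- or monocyte-like, 41.5% in alveolar type 1-like and 25.5% in alveolar type 2-like nuclei. The class of 451 nuclei led by Prkg1, Nox4 and Eln had been named by its smooth muscle or pericyte markers, whose summed level in it was 658 to 1634 CPM (transcript counts-per-million), but its fibroblast markers were about as high, at 689.5 to 1638 CPM, against 15.8 to 55.4 CPM in tumor-like nuclei. It is therefore called Prkg1/Eln-led here. The other names stand for nuclei whose own markers were raised, and the part of carried-over tumor RNA in the levels of Trp53 and its targets was not tested.

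The element that p53 binds consists of a pair of half-sites of 10 bases, each made of 3 purines, a C, 2 bases that are A or T, a G and 3 pyrimidines, and it reads alike on both strands. The genome of the files' build (GRCm39) was searched from 3000 bases before to 2000 bases after the start of the canonical transcript of each gene, for 20 bases without a spacer in which the 4 core C and G positions were kept and at most 2 of the others differed. Of 21757 such windows of protein-coding genes, 4.89% held a match with at most 2 differences, 0.754% with at most 1 and 0.0965% with none. Among Trp53 and its 9 targets and regulators, 4 genes held the 5 matches, which are printed here because p53 is known to act through elements of this form. Capitals mark the core C and G of each half-site, and each sequence runs 5′ to 3′ in the direction of its gene.
Cdkn1a, chr17:29309902-29309921, 2826 bases before the start: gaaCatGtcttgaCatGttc
Ccng1, chr11:40646289-40646308, 160 bases before the start: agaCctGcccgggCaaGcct
Ccng1, chr11:40645763-40645782, intron, 366 bases after the start: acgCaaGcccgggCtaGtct
Zmat3, chr3:32418480-32418499, intron, 1418 bases after the start: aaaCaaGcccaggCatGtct
Eda2r, chrX:96420140-96420159, intron, 690 bases after the start: gggCaaGtccgggCctGtgt
The Zmat3 match had no difference from the element, the Cdkn1a match and both Ccng1 matches had 1, and the Eda2r match had 2. The Cdkn1a match lies just before the first annotated base of the gene, whose canonical transcript starts further in. A match of letters is a description and no measurement of binding.

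The first question was whether Trp53 and its targets differed between tumors with and without Casp8. In tumor-like nuclei none of the 10 genes passed the threshold of an edgeR adjusted p under 0.05, and edgeR called 0% of the 20039 genes tested. An unadjusted p under 0.05 was reached by 2 of the 10 genes, Ccng1 and Sesn2, and by 15.3% of all genes. DESeq2 also called none of the 10, while it called 4.57% of the genes to which it gave an adjusted p, and it gave none to Phlda3. For 5 of the 10 genes both RPC animals lay on the same side of both RP animals, which also held for 50.5% of all genes, so this share was that of the background. Relative to RP, the median log2 fold change in RPC was 0.25 over the 10 genes and -0.01 over all genes tested. Endothelial markers also stood apart between the genotypes in these nuclei, with summed levels, in CPM, of 758 and 912 CPM in RP1 and RP2 and of 2198 and 1337 CPM in RPC1 and RPC2, and their part was not tested.

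Trp53 (ENSMUSG00000059552, chr11:69469669-69482701, plus strand, 11 exons) kept transcripts in the tumor-like nuclei of every animal. Its level was 13.4 CPM in RP1, 12.8 CPM in RP2, 18.2 CPM in RPC1 and 12.5 CPM in RPC2, scaled by TMM over these 4 sums. RPC1 was the highest, and RPC2 lay below both RP animals, so the genotypes overlapped. The mean was 13.1 ± 0.449 CPM in RP and 15.3 ± 4.03 CPM in RPC (SD, n = 2 each), and the log2 fold change was 0.23 (SE 0.26, edgeR adjusted p 0.685). A count over the whole gene does not show whether the conditional allele was deleted, and 2 antisense genes, Wrap53 and the lncRNA Gm57392, overlap Trp53. Barcoding wells of 1 animal differed almost as much as the animals, from 10.04 to 14.9 CPM between the wells of RP1 and from 9.94 to 15.2 CPM between those of RPC2.

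**Figure D1:**
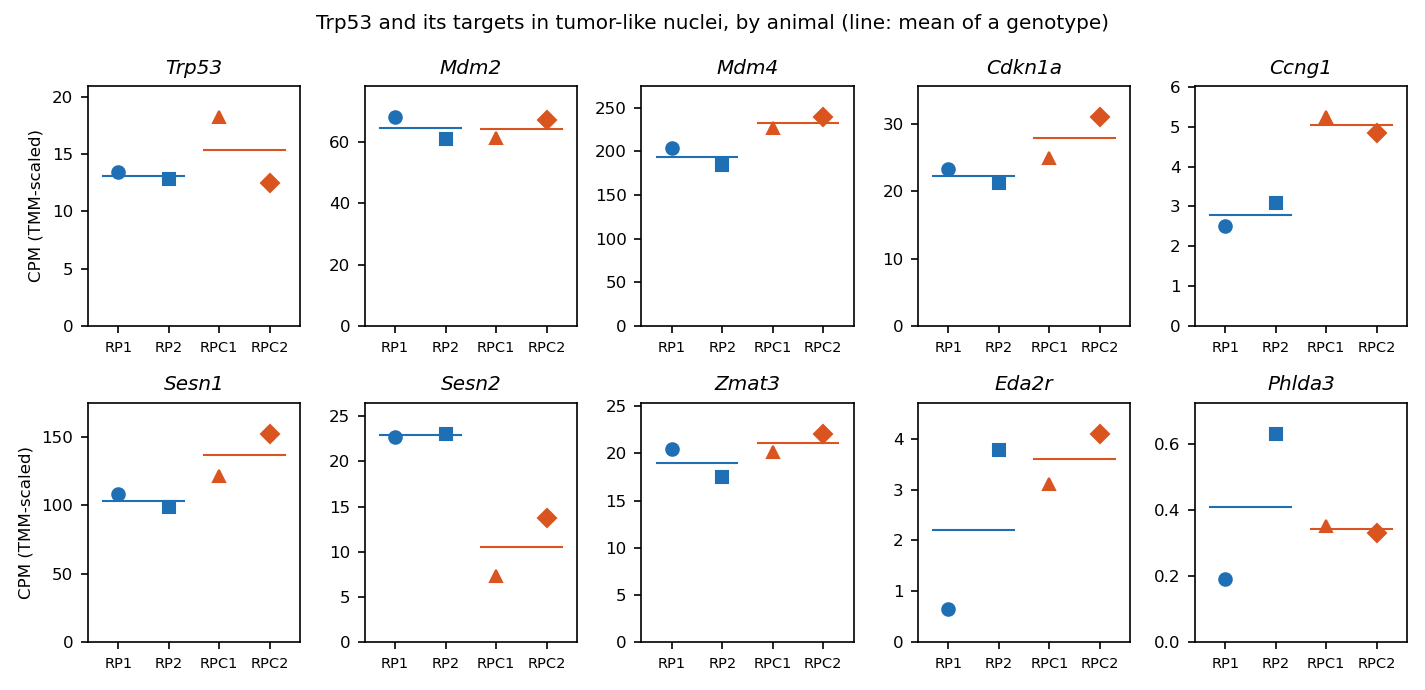
Level of each of the 10 genes in tumor-like nuclei, in transcript counts-per-million (CPM) scaled by TMM (vertical axes from 0), for RP1 and RP2 (blue) and RPC1 and RPC2 (orange), with the mean of each genotype as a line. Sesn2 lay at 22.7 and 23.0 CPM in the RP animals and at 7.36 and 13.8 CPM in the RPC animals, and Eda2r and Phlda3 spread more within RP than between the genotypes.

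Of the negative regulators, Mdm2 (chr10:117524780-117546730, minus strand) had 68.2 and 61.2 CPM in RP1 and RP2, and 61.5 and 67.3 CPM in RPC1 and RPC2. The genotypes overlapped completely, with a log2 fold change of -0.01 (SE 0.15, edgeR adjusted p 0.988). Mdm4 (chr1:132887222-132958299, minus strand) had 204 and 184 CPM in the RP animals, and 227 and 239 CPM in the RPC animals. Both RPC animals lay above both RP animals, and the log2 fold change of 0.26 (SE 0.14) had an edgeR adjusted p of 0.412.

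The cell cycle and growth targets were Cdkn1a, whose product p21 inhibits cyclin-dependent kinases, and Ccng1, which encodes cyclin G1. Cdkn1a (chr17:29309936-29319701, plus strand) had 23.2 and 21.2 CPM in RP1 and RP2, and 24.9 and 31.0 CPM in RPC1 and RPC2. The RP animals were both lower, and the log2 fold change was 0.33 (SE 0.19, edgeR adjusted p 0.446). The antisense genes Dino and Gm64878 overlap Cdkn1a. Ccng1 (chr11:40639377-40646148, minus strand) was sparse, with 2.51 and 3.08 CPM in RP and 5.24 and 4.85 CPM in RPC. The gap between the genotypes was larger than the spread within each, but the log2 fold change of 0.85 (SE 0.29, unadjusted edgeR p 0.0316) had an adjusted p of 0.304. The coding gene Nudcd2 overlaps Ccng1 on the opposite strand, and whether the counting used strand is not given in the sources used here.

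The sestrins, which restrain the growth kinase mTORC1 under stress, pointed in opposite directions. Sesn1 (chr10:41685931-41784423, plus strand) had 108 and 98.7 CPM in RP1 and RP2, and 121 and 152 CPM in RPC1 and RPC2, with a log2 fold change of 0.41 (SE 0.17, edgeR adjusted p 0.336). Sesn2 (chr4:132219335-132237815, minus strand) had 22.7, 23.0, 7.36 and 13.8 CPM. Both RPC animals were lower, RPC1 the most, and the RP animals were nearly equal. The log2 fold change of Sesn2, -1.11 (SE 0.34, unadjusted edgeR p 0.0205), had the largest size among the 10 genes, with an edgeR adjusted p of 0.287 and a DESeq2 adjusted p of 0.0639. Without RPC1 it was -0.72 and without RPC2 -1.62. The lncRNA Gm12981 overlaps Sesn2 on the same strand.

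The Sesn2 values were also taken within the sublibraries and nuclei of each animal, which are splits of the same 4 animals and add no replicate. Over the 7 sublibraries, Sesn2 ranged from 20.01 to 23.9 CPM in RP1, from 19.1 to 26.6 CPM in RP2, from 6.56 to 9.19 CPM in RPC1 and from 11.6 to 16.3 CPM in RPC2, without TMM scaling. The RP and RPC ranges did not overlap. Thinned to 1000 transcripts per nucleus, which left out 744, 742, 141 and 420 shallower nuclei, 1.94% of tumor-like nuclei of RP1 held a Sesn2 transcript (95% exact binomial interval 1.61 to 2.31), 1.98% of RP2 (1.65 to 2.35), 0.587% of RPC1 (0.440 to 0.767) and 1.40% of RPC2 (1.16 to 1.68). These intervals cover counting error only, and that of RPC2 touches those of the RP animals. Unthinned, the shares were 6.57%, 6.58%, 3.76% and 5.65%. Of the 85 other genes tested within 2 megabases of Sesn2, 65 were lower and 20 higher in RPC, with a median log2 fold change of -0.36, and the part of this neighborhood was not tested.

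Of the remaining targets, Zmat3 encodes an RNA-binding zinc finger protein, Eda2r a receptor of the tumor necrosis factor family and Phlda3 an inhibitor of the kinase Akt. Zmat3 (chr3:32388941-32420163, minus strand) had 20.5 and 17.5 CPM in RP1 and RP2, against 20.2 and 22.1 CPM in RPC1 and RPC2, and overlapped between the genotypes (log2 fold change 0.16, SE 0.19). Eda2r (chrX:96320270-96420847, minus strand) had 0.647 CPM in RP1 but 3.78 CPM in RP2, against 3.10 and 4.09 CPM in RPC1 and RPC2. RP1 alone was low, and the log2 fold change of 0.70 (SE 0.79) was smaller than its error. Phlda3 (chr1:135693809-135697686, plus strand) was near the limit of detection, at 0.190, 0.630, 0.351 and 0.332 CPM from 56 transcripts in all.

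The other genes of the pathway were a list of 53, of which 52 were tested in tumor-like nuclei. None of the 52 was called by edgeR or DESeq2. An unadjusted edgeR p under 0.05 was reached by 3 of the 52, against 15.3% of all genes tested. These were the p53 deubiquitinase Usp10 (log2 fold change -0.62, SE 0.14), the antiproliferative factor Btg2 (0.48, SE 0.18) and Trp53inp1 (0.99, SE 0.35), named here after their values were seen. The median log2 fold change of the 52 genes was -0.09. The p53 relatives Trp63 and Trp73 and the p53 activator locus Cdkn2a were not called: Trp73 had 85.1, 102, 67.6 and 86.2 CPM, Cdkn2a 70.3, 77.0, 66.4 and 73.8 CPM, and Trp63 3.16, 2.89, 2.25 and 3.25 CPM, each in the order RP1, RP2, RPC1, RPC2. The other targeted genes, Rb1 (log2 fold change 0.32, edgeR adjusted p 0.372) and Casp8 (0.37, edgeR adjusted p 0.398), were not called either, and counts over the whole gene do not check their deletion.

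The second question was how Trp53 and its targets in nuclei of the deleted tumor compared with the normal classes of the same lungs. Counts were summed per animal and class and fitted together over 32 sums with the animal as a block, and levels in this comparison were scaled by TMM over these sums. The filter on low counts kept 7 of the 10 genes and removed Ccng1, Eda2r and Phlda3. Against the 7 classes this gave 49 comparisons of a gene with a class, of which edgeR called 12. Of all 11677 genes tested, edgeR called from 8.49% against B cell-like to 35.5% against alveolar type 2-like nuclei. The share of 12 in 49 lies within that range. Fewer nuclei of a cell type do not enter these levels, since each sum is scaled by its own total. The filter on low counts took sums of any class alike. In tumor-like nuclei Trp53 and Sesn2 did not reach its limit in every animal, so sums of normal classes helped to keep them. The 7 results share the same tumor-like sums.

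Trp53 was fitted lower in tumor-like nuclei than in each of the 7 classes tested, and the difference passed the test in 3 of them. Because normal classes helped to keep Trp53 past the filter, its lower direction is not independent of that filter. The sign stayed the same against each class in all 13 alternatives, including no filter. The 7 signs are not independent, and how many of all genes were lower against all 7 classes was not computed. In the endothelial-like nuclei, from the vessel lining, Trp53 had 23.1 and 20.5 CPM in the RP animals and 23.0 and 21.5 CPM in the RPC animals, against 13.4, 12.6, 18.4 and 12.7 CPM in their tumor-like nuclei on this scale. Each of the 4 animals had the lower value in the tumor. The log2 fold change of tumor-like over endothelial-like was -0.62 (SE 0.20, edgeR adjusted p 0.0320), where 17% of all 11677 genes tested were called and 11.7% were called lower in the tumor.

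In the Prkg1/Eln-led nuclei, with their mixed mural and fibroblast markers, Trp53 had 30.8, 20.3, 34.5 and 22.9 CPM, again above the tumor-like level in all 4 animals. Relative to this class the log2 fold change was -0.91 (SE 0.19, edgeR adjusted p 0.000314), where 22.4% of genes were called and 14.2% were called lower. In alveolar type 1-like nuclei, from the thin lining of the air spaces, Trp53 had 25.3, 19.02, 15.8 and 35.5 CPM, from 3, 5, 2 and 30 transcripts. Here the log2 fold change was -1.02 (SE 0.27, edgeR adjusted p 0.00302; 31.7% of genes called, 16.8% lower), and RPC1 had the higher value in the tumor. This call rested on RPC2, which gave most of the transcripts: without RPC2 the log2 fold change was -0.41 with an edgeR adjusted p of 0.580.

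The endothelial call was lost without RP1 (edgeR adjusted p 0.118), without RP2 (0.131) and without RPC2 (0.135), with log2 fold changes from -0.73 to -0.57 when any 1 animal was left out. The call against the Prkg1/Eln-led nuclei was kept without each animal, from -0.95 to -0.81.

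In the other 4 classes the difference in Trp53 did not pass the test in edgeR. The log2 fold change was -0.71 (SE 0.25, edgeR adjusted p 0.0764) against B cell-like, -0.86 (SE 0.36, 0.0826) against alveolar type 2-like, -0.40 (SE 0.18, 0.0846) against macrophage- or monocyte-like and -0.59 (SE 0.33, 0.356) against T or NK cell-like nuclei. The tumor-like level was the lower one in all 4 animals for the first 3 of these classes and in 3 of 4 for T or NK cell-like nuclei. DESeq2 called the B cell-like and the macrophage-like difference (adjusted p 0.0429 and 0.0435). When nuclei deeper than 4 times the median of their animal were left out, these differences were -1.36 (edgeR adjusted p 0.00214) and -0.89 (edgeR adjusted p 0.00406).

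**Figure D2:**
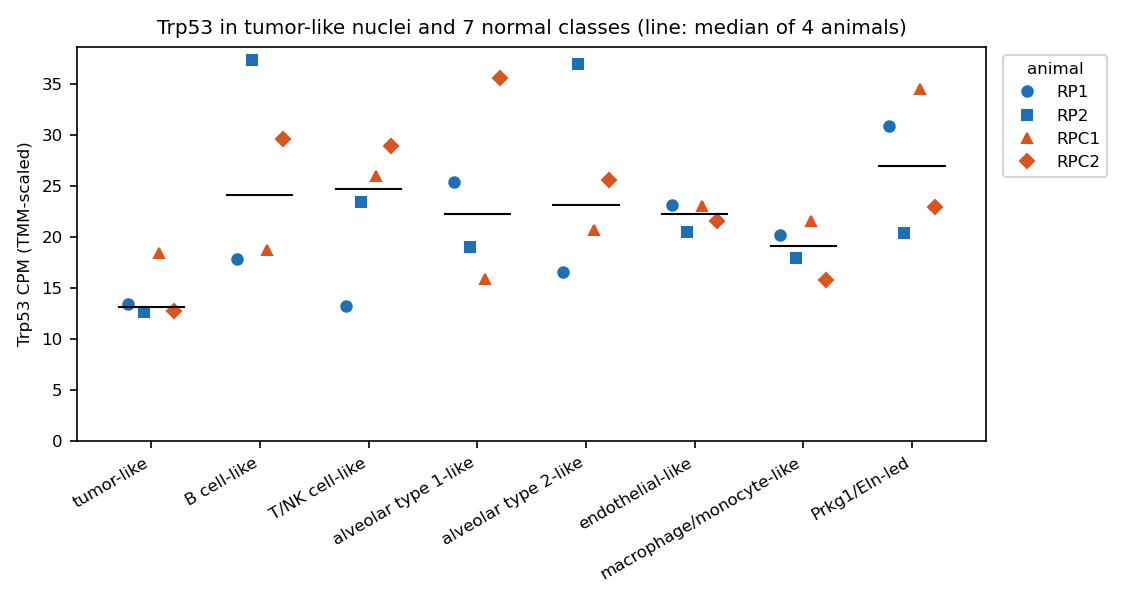
Trp53 in transcript counts-per-million (CPM) scaled by TMM over 32 sums, for tumor-like nuclei and 7 normal classes, 1 point per animal (RP blue, RPC orange) and the median of 4 animals as a line. The tumor-like median of 13.1 CPM was the lowest of those plotted, and the Prkg1/Eln-led median of 26.9 CPM the highest.

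By median over the 4 animals, the order of Trp53 levels from low to high was tumor-like (13.1 CPM), macrophage- or monocyte-like (19.1), alveolar type 1-like (22.2), endothelial-like (22.2), alveolar type 2-like (23.1), B cell-like (24.1), T or NK cell-like (24.6) and Prkg1/Eln-led (26.9). The classes with too few nuclei for the test did not all lie above the tumor: without TMM scaling, Trp53 had 7.13 to 10.8 CPM in 81 ciliated-like nuclei, from 9 transcripts in all, below the 12.6 to 18.8 CPM of tumor-like nuclei, 20.9 to 36.7 CPM in 703 club-like nuclei and 0 to 89.1 CPM in 55 mesothelial-like nuclei. Among the 7 classes tested the animals of each neighboring pair in this order overlapped. Thinned to 1000 transcripts, 1.22%, 1.08%, 2.25% and 1.36% of tumor-like nuclei held a Trp53 transcript in RP1, RP2, RPC1 and RPC2, against 2.38%, 1.64%, 4.55% and 3.23% of endothelial-like nuclei. Median depths of the nuclei used were 2504 to 3378 in tumor-like and 2699 to 4294 in endothelial-like nuclei, and the endothelial shares rest on 2, 2, 4 and 5 nuclei, so the exact binomial intervals overlapped in every animal.

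Mdm2 and Mdm4 together were called in 3 of their comparisons with the 7 classes. Mdm2 was lower in tumor-like nuclei than in alveolar type 1-like nuclei (log2 fold change -0.39, SE 0.15, edgeR adjusted p 0.0427) and macrophage-like nuclei (-0.28, SE 0.10, 0.0351), where 33.1% of all genes were called. In macrophage-like nuclei it had 75.8, 80.4, 78.0 and 80.5 CPM, in the order RP1, RP2, RPC1, RPC2, against 68.1, 60.5, 62.2 and 68.3 CPM in tumor-like nuclei, without overlap. The macrophage call was lost without RP2 (adjusted p 0.150), RPC1 (0.144) or RPC2 (0.105), and without the deepest nuclei the log2 fold change was -0.74. The alveolar type 1 call was lost without any 1 of the 4 animals, with log2 fold changes from -0.43 to -0.10, the last without RPC2. Mdm4 was lower than in alveolar type 2-like nuclei (-0.33, SE 0.13, edgeR adjusted p 0.0467, where 35.5% of genes were called), and this call was lost without any 1 of the animals and was 0.00175 when that class was fitted alone with the tumor. In the untested ciliated-like nuclei Mdm2 was higher than in the tumor without overlap, at 99.8 to 143 CPM from 123 transcripts, against 60.7 to 67.8 CPM in tumor-like nuclei, both without TMM scaling.

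Cdkn1a was not called against any class by edgeR or DESeq2. It had 23.2, 21.0, 25.2 and 31.4 CPM in tumor-like nuclei and 25.4, 36.4, 25.3 and 41.6 CPM in endothelial-like nuclei. The endothelial-like value was the higher one in each animal, although the values of RPC1 were nearly equal, and the fitted log2 fold change of tumor-like over endothelial-like was -0.39 (SE 0.15, edgeR adjusted p 0.0773). Against the Prkg1/Eln-led nuclei, with 32.2, 32.1, 29.5 and 34.4 CPM, the value was -0.34 (SE 0.15, edgeR adjusted p 0.0983). Zmat3 was not called against any class by either tool, with log2 fold changes between -0.43 (Prkg1/Eln-led) and 0.39 (B cell-like).

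**Figure D3:**
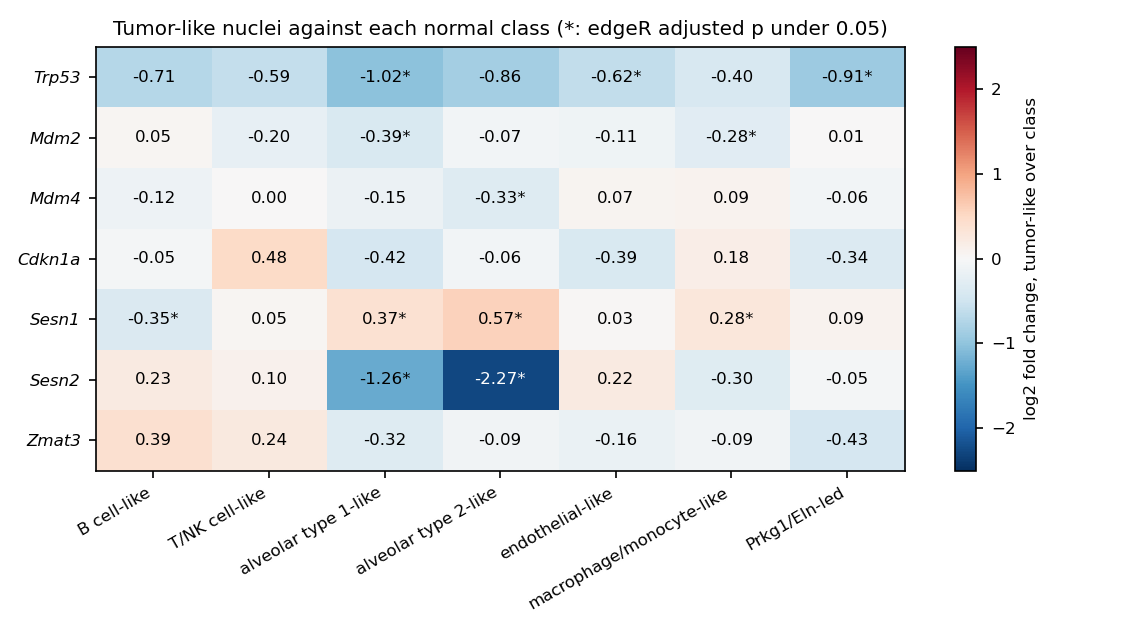
Log2 fold change of tumor-like nuclei over each of 7 normal classes for the 7 genes that passed the filter on low counts, blue where lower and red where higher in the tumor, with a star at an edgeR adjusted p under 0.05. The Trp53 row is negative throughout, from -1.02 to -0.40, while the strongest value of all is that of Sesn2 against alveolar type 2-like nuclei, -2.27.

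Sesn2 gave the largest difference from a normal class. Alveolar type 2-like nuclei, from the surfactant-producing cells of the lung, had a Sesn2 level of 49.6 and 94.9 CPM in RP1 and RP2 and of 45.5 and 89.4 CPM in RPC1 and RPC2, from 3, 18, 11 and 14 transcripts. The tumor-like nuclei had 22.7, 22.8, 7.44 and 13.998 CPM, so every animal was lower in the tumor and the groups did not overlap. The log2 fold change was -2.27 (SE 0.38, edgeR adjusted p 6.77e-06; 18.4% of genes were called lower in the tumor), and it stayed between -2.35 and -2.08 when any 1 animal was left out.

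In alveolar type 1-like nuclei Sesn2 had 84.5, 57.0, 63.3 and 11.8 CPM, from 10, 15, 8 and 10 transcripts. RPC2 was the exception, with a value below its tumor-like level. This gave a log2 fold change of -1.26 (SE 0.37, edgeR adjusted p 0.00820), and it was -1.92 without RPC2, -1.04 without RP1 (edgeR adjusted p 0.0783) and -0.86 without RPC1 (0.0869). In the other 5 classes Sesn2 was not called, with log2 fold changes from -0.30 to 0.23.

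Sesn1 differed in the other direction from the alveolar classes. Tumor-like nuclei had 108, 97.6, 123 and 155 CPM, again in the order RP1, RP2, RPC1, RPC2, and alveolar type 2-like nuclei had 82.7, 58.0, 91.0 and 102 CPM, lower in every animal. Sesn1 thus had a log2 fold change of 0.57 (SE 0.17, edgeR adjusted p 0.0108; 17.1% of genes were called higher in the tumor). Sesn1 was also called higher than in alveolar type 1-like (0.37, SE 0.14, edgeR adjusted p 0.0356) and macrophage-like nuclei (0.28, SE 0.10, 0.0218), and lower than in B cell-like nuclei (-0.35, SE 0.11, 0.0430), where 8.49% of genes were called. Each of these last 3 calls was lost when any 1 animal was left out, without a change of sign. Across the 32 sums, Sesn1 and Sesn2 had a Pearson correlation of -0.62 on log2(CPM + 1), given as a description, since the sums of an animal share its depth and carried-over RNA.

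**Figure D4:**
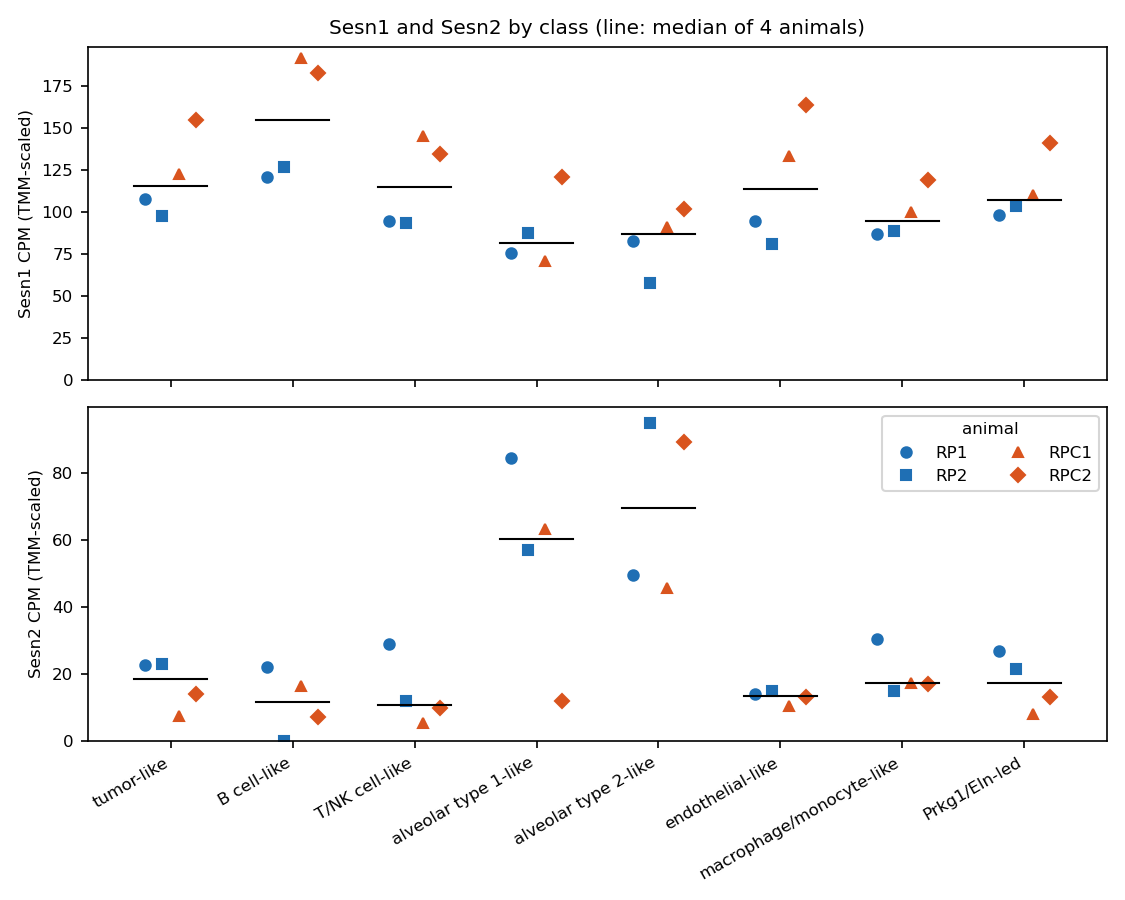
Sesn1 (top) and Sesn2 (bottom) in transcript counts-per-million (CPM) scaled by TMM over 32 sums, for tumor-like nuclei and 7 normal classes, 1 point per animal (RP blue, RPC orange) and the median as a line. The alveolar classes were low for Sesn1 and high for Sesn2, apart from the single low Sesn2 value of 11.8 CPM in alveolar type 1-like nuclei of RPC2.

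Of the 7 genes against all classes, edgeR thus called 4 against alveolar type 1-like, 3 against alveolar type 2-like, 2 against macrophage- or monocyte-like and 1 each against B cell-like, endothelial-like and Prkg1/Eln-led nuclei. None was called against T or NK cell-like nuclei by edgeR or DESeq2, and none had an unadjusted p under 0.05 there, where 9.19% of genes were called. Over all genes, the shares called lower and higher in the tumor were 16.8% and 14.9% against alveolar type 1-like, 18.4% and 17.1% against alveolar type 2-like, 17.7% and 15.4% against macrophage- or monocyte-like, 6.52% and 1.97% against B cell-like, 11.7% and 5.35% against endothelial-like, 14.2% and 8.14% against Prkg1/Eln-led and 6.62% and 2.57% against T or NK cell-like nuclei. The median log2 fold change of the 7 genes was between -0.39 and 0.05 over the classes, and that of all genes tested between 0.03 and 0.08.

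The 3 genes removed by the filter were too sparse for this comparison, and their levels without TMM scaling are given as a description. Ccng1 had 2.43 to 5.40 CPM in tumor-like nuclei and 4.49 to 17.7 CPM in alveolar type 2-like nuclei, the latter from 8 transcripts. Eda2r had 0.625 to 4.13 CPM in tumor-like nuclei, 2.57 to 8.85 CPM in Prkg1/Eln-led nuclei and no transcript in 208 alveolar type 2-like nuclei. Phlda3 had no transcript in the B cell-like and T or NK cell-like nuclei of any animal and at most 6 transcripts in any other of the 7 classes.

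Of the 53 other genes of the pathway 42 were tested against the classes, and edgeR called 7 higher and 7 lower in the tumor against alveolar type 1-like, 9 and 7 against alveolar type 2-like, 4 and 5 against endothelial-like, 3 and 5 against macrophage-like, 2 and 5 against Prkg1/Eln-led and 0 and 1 against T or NK cell-like nuclei. The 14, 16 and 8 calls of 42 against alveolar type 1-like, alveolar type 2-like and macrophage-like nuclei stand beside 31.7%, 35.5% and 33.1% of all genes. Of all genes, 17% were called against endothelial-like, 22.4% against Prkg1/Eln-led, 9.19% against T or NK cell-like and 8.49% against B cell-like nuclei. The median log2 fold change of the 42 genes was between -0.02 and 0.05 over the 7 classes. Against B cell-like nuclei edgeR called none, with 4 at an unadjusted p under 0.05, and DESeq2 called 1, Fas. Several of the lower genes passed the filter on low counts only because they were high in a normal class, so that their direction was fixed by the filter and their levels are a description. Fas, a death receptor, had 0.317 to 0.456 CPM in tumor-like and 36.4 to 99.9 CPM in endothelial-like nuclei. Dram1, a lysosomal protein of autophagy, had 2.59 to 4.53 CPM in tumor-like and 512 to 1207 CPM in alveolar type 2-like nuclei, and Tnfrsf10b, the mouse TRAIL receptor, had 1.69 to 3.51 CPM in tumor-like and 18.7 to 43.9 CPM in endothelial-like nuclei.

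Ptpn14, a phosphatase that restrains Yap, was well detected in the tumor, at 50.5 to 90.9 CPM, and was lower there than in alveolar type 1-like nuclei in all 4 animals (log2 fold change -2.09, SE 0.15). Cell type and the deletion of Trp53 go together in this comparison, so their parts in such differences cannot be told apart here.

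The 18 regulators that act before p53 went both ways: 4 were called higher and 2 lower against alveolar type 1-like, 5 and 1 against alveolar type 2-like, 1 and 2 against macrophage-like, 2 and 0 against endothelial-like and 2 and 0 against Prkg1/Eln-led nuclei. The shares of all genes called higher and lower were 14.9% and 16.8% against alveolar type 1-like, 17.1% and 18.4% against alveolar type 2-like nuclei. Against macrophage-like nuclei they were 15.4% and 17.7%, against endothelial-like 5.35% and 11.7% and against Prkg1/Eln-led 8.14% and 14.2%. Trp73, the p53 relative, had 68.4 to 101 CPM in tumor-like nuclei and was called higher than in alveolar type 1-like (log2 fold change 1.08, SE 0.27), alveolar type 2-like (1.08, SE 0.35) and macrophage-like nuclei (0.65, SE 0.17). Cdkn2a, which encodes the Mdm2 inhibitor p19Arf and the kinase inhibitor p16, had 67.1 to 76.1 CPM and was called higher than in alveolar type 1-like (0.64, SE 0.22) and alveolar type 2-like nuclei (1.12, SE 0.31). The damage kinases Atm (0.93, SE 0.19) and Chek1 (0.90, SE 0.24) were called higher than in alveolar type 1-like nuclei. Each was higher in the tumor in all 4 animals, and Trp63 did not pass the filter. For these genes neuroendocrine transcripts carried into the normal nuclei were also lowest in the alveolar classes, and the part of that gradient was not tested. Of the 18 regulators, Hipk2 went the other way, with 241 to 336 CPM in tumor-like nuclei. Its levels were 449 to 561 CPM in alveolar type 1-like and 377 to 452 CPM in macrophage-like nuclei.

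Within the tumor-like nuclei of each animal, clusters of at least 100 nuclei were set side by side as a description. Only the least and the most proliferative cluster of each animal are compared here, by the summed level of proliferation genes, and how many of all genes share a pattern was not computed. For Mdm4, the level went from 143 to 274 CPM in RP1, from 170 to 206 CPM in RP2, from 203 to 283 CPM in RPC1 and from 210 to 280 CPM in RPC2. Sesn2 went from 21.8 to 33.9 CPM in RP1, from 9.69 to 25.0 CPM in RP2, from 4.71 to 9.21 CPM in RPC1 and from 11.6 to 19.9 CPM in RPC2. The Sesn2 values of the least proliferative clusters rest on 47 transcripts in RP1, on 2 in RPC1 and on 8 each in RP2 and RPC2. Mdm2, Cdkn1a and the sparse Ccng1 were also higher in the most proliferative cluster of each animal. Thus the direction was not particular to Mdm4 and Sesn2. In RP1, RP2, RPC1 and RPC2 the least proliferative clusters held 858, 275, 116 and 304 nuclei. The most proliferative held 117, 2440, 1848 and 2382. Over the nuclei of all animals, median depth was 1953 and 2938 transcripts in the clusters taken as least proliferative. It was 3356 to 5822 in those taken as most proliferative, and the part of depth was not tested. Trp53 fell only in RP1, from 8.35 to 3.39 CPM, the last value from 1 transcript. It rose from 7.27 to 14.1 CPM in RP2, from 14.1 to 17.1 CPM in RPC1 and from 11.6 to 13.2 CPM in RPC2. The lower values of these rises rest on 6, 6 and 8 transcripts.

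**Figure D5:**
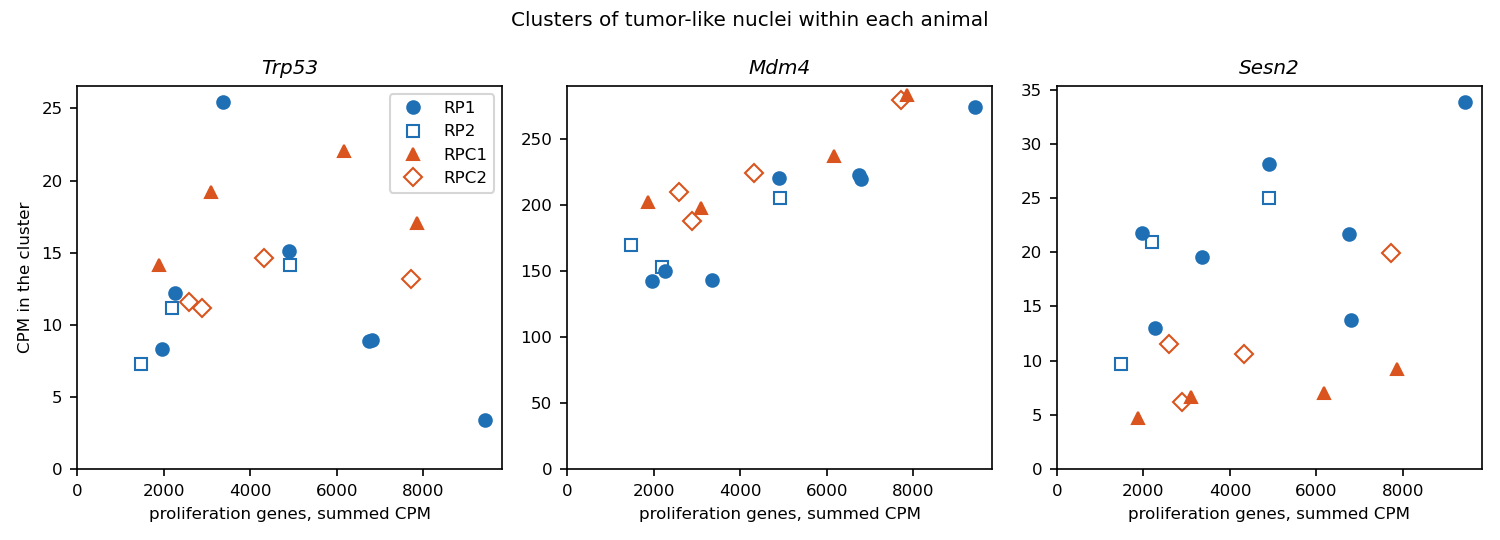
Levels of Trp53, Mdm4 and Sesn2 (vertical axes, transcript counts-per-million (CPM) without TMM scaling) against the summed level of proliferation genes (horizontal axes, CPM) in clusters of tumor-like nuclei, 1 point per cluster and animal. Mdm4 and Sesn2 were higher in the most than in the least proliferative cluster of each animal, as were Mdm2, Cdkn1a and Ccng1, not plotted. The Trp53 points of RP1 spread from 3.39 to 25.5 CPM.

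The third question was whether the genotypes differed in normal nuclei, and whether they differed there as in the tumor. In endothelial-like nuclei 7 of the 10 genes were tested and edgeR called none, against 0.0722% of all 9696 genes, with Sesn1 and Mdm4 at an unadjusted p under 0.05. In macrophage-like nuclei 7 were tested and edgeR called none, against 0.00839% of 11920 genes, with none at an unadjusted p under 0.05. DESeq2 called none in either class. Trp53 had a log2 fold change of RPC over RP of 0.02 (SE 0.38) in endothelial-like and -0.03 (SE 0.33) in macrophage-like nuclei. Sesn1 had 0.76 (SE 0.23, unadjusted edgeR p 0.0105, adjusted p 0.296) in endothelial-like nuclei, in the direction of the tumor-like nuclei, whose markers were found there at 73.3 to 85.1% of their level.

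The difference between the genotype effects in tumor-like and normal nuclei was fitted as an interaction. None of the 9 genes tested was called with endothelial-like nuclei, where 0.461% of genes were called, and none of 10 with macrophage-like nuclei, where 0.0106% were called, and DESeq2 also called none. At an unadjusted edgeR p under 0.05 there were 0 and 1. That 1 was Sesn2, for which the tumor-like effect was lower by 0.95 on the log2 scale than that in macrophage-like nuclei (interaction -0.95, SE 0.40, unadjusted edgeR p 0.0309, adjusted p 0.963).

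Genes with a pattern most like that of Trp53, Mdm2 and Cdkn1a were sought by Pearson correlation of log2(CPM + 1) over the 32 sums, among 10335 genes with a mean of at least 10 CPM. For Trp53 these were Cog5 (0.60), Tmsb4x (0.58), Relb (0.57), Rest (0.57) and Cfap43 (0.55). For Mdm2 they were Cd63 (0.62), Esrra (0.61), Hycc1 (0.59), Ubl3 (0.58) and Gm49980 (0.57), and for Cdkn1a Acyp2 (0.70), Zscan21 (0.69), Flrt3 (0.67), Mrs2 (0.66) and Myo6 (0.66). The sums share animals, depth and carried-over RNA, and these values are descriptions. Among the 7 genes themselves, Trp53 had a correlation of 0.12 with Mdm2 and 0.23 with Cdkn1a.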

How the data were processed

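Per the labels and the methods of the study, nuclei were barcoded with the Parse Evercode kit, and the 7 libraries each pool all 4 animals. The authors aligned reads to GRCm39, separated animals by barcoding well and deposited raw counts of unique transcripts for each gene and nucleus, 1 matrix per animal, with the sublibraries merged. Strand use in counting is not given in the sources used here. Of the 12 columns of the table of nuclei, 8 were not used.

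Nuclei were kept with at least 300 counts, at most 10% of them mitochondrial, and at most 12000 genes, which left 38254 of 38353. Leiden clusters (leidenalg 0.10.2, resolution 0.4, 2000 variable genes, 20 principal components) under Python 3.11.15 excluded the 63 pathway genes and were named by 13 marker lists, and the naming rule was set after the clusters were seen. Club-like, ciliated-like and mesothelial-like nuclei were too few in at least 1 animal for the comparison. No doublet caller was run. Clusters over 4 times the depth of their animals stayed unnamed, and leaving out such deep nuclei was an alternative. Names are reconstructions and may differ from those of the study.

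Counts were summed per animal and class and tested by quasi-likelihood in edgeR 4.0.16 (R 4.3.3, TMM, filterByExpr, two-sided, Benjamini-Hochberg over all genes tested). Standard errors were calculated back from the F statistic. DESeq2 1.42.0, which the study used, was an alternative. Scripts were tested on simulated data. With 2 animals per genotype, p-values between the genotypes set a difference against the spread between these animals, moderated by edgeR with that of other genes. Those between classes set it against the spread left after the animal block, moderated alike and shared over all classes in the fit. The genes and lists were chosen with earlier results of these data known. All 10 genes were named. Of the other pathway genes, Trp63, Trp73 and Cdkn2a were named, and others among the 5 largest calls per direction in a comparison. Positions are from GENCODE (GRCm39).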

Additional observations from a re-analysis of the deposited data

Results flagged for a closer look

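The 7 sublibraries of each animal were examined for a value far from the others, for the 10 genes in tumor-like nuclei, which made 40 groups. In 2 groups, the number chance gives at about 1 in 20, the gap to the next value, as a share of the range, passed Dixon's limit. Mdm2 in RP1 was at 58.3 CPM in 1 sublibrary, while the next was at 65.8 CPM. Eda2r in RPC1 was at 3.88 CPM in 1 sublibrary, while the next was at 3.26 CPM.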

How the results depend on the processing

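The number of the 10 genes called between the genotypes was 0 in tumor-like nuclei, in endothelial-like and macrophage-like nuclei and in the interaction, and it was 0 under each alternative, including DESeq2, another scaling, no filter and each animal left out. Over all genes, edgeR called 0 between the genotypes in tumor-like nuclei, 17 without the filter, 9 without RPC2 and DESeq2 738. The replicate numbers only name the animals (correlation of the deviations of the animals numbered 1 was -0.05), and with the replicate block the count of the 10 genes called was 0 in tumor-like and in normal nuclei. The 12 calls of tumor-like nuclei against the classes were 6 without the filter on low counts, 6 with 1 class fitted at a time, 4 without the animal block and 4 to 5 when 1 animal was left out. Of these 12 calls, 2 were kept under each alternative run: Trp53 against the Prkg1/Eln-led nuclei, a class with both mural and fibroblast markers, and Sesn2 against alveolar type 2-like nuclei. The log2 fold change of Mdm4 against alveolar type 2-like nuclei was 0.00175 with 1 class fitted at a time. Between the genotypes, the log2 fold change of Mdm2 was 0.0633 without the filter and between -0.0798 and 0.0751 when 1 animal was left out, that of Trp53 between -0.0605 and 0.49, that of Eda2r between -0.0718 and 2.47 and that of Phlda3 between -0.88 and 0.84. The thinned share of nuclei holding Trp53 transcripts in the tumor differed by 0.650 points between RPC and RP, by 0.203 to 1.096 points when 1 animal was left out and by 2.96 points without thinning, which leaves the depth difference in. The causes of the other changes were not tested. Few transcripts of the normal classes limit these comparisons.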
